A study of Arabidopsis thaliana with 21 samples.

Results

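GA20OX1-OE, a transgenic line of Arabidopsis thaliana, was set against its wild type Col-0 in the above-ground parts of soil-grown plants 21 days old, a tissue labelled rosette. The 6 arrays were chosen by their titles, 3 named GA20OX1-OE without aba2 and 3 named Col-0, out of 21 in the series. The other arrays carried aba2/GA20OX1-OE, ga20ox1, aba2, ABA2-OE and aba2/ga20ox1, again 3 each, and they entered the same fit. All lines are in the Col-0 ecotype per the labels, and plants of every genotype had the same age, with no treatment stated. The sources used here do not give the promoter of the transgenes, the number of independent lines, the mutant alleles or any pooling of plants. Nor do they say that replicate arrays stem from separate plants or harvests, so every p-value reflects only how far these arrays spread, which may be technical.

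GA20OX1 encodes a gibberellin 20-oxidase, an enzyme late in the synthesis of gibberellin (GA), the hormone that promotes leaf expansion, stem elongation and flowering. Bioactive GA binds GID1 receptors, and the complex brings DELLA repressors to the F-box protein SLY1, after which they are degraded. ABA2 is needed to make abscisic acid (ABA), a hormone that opposes GA in many growth responses, and the series as a whole asks how both hormones act on each other in leaf development. The annotation used here names no probe set for GA20OX1 or ABA2, so the level of the transgene was not checked.

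Values are log2 of the MAS5 signal of a probe set, a measure of hybridised RNA in which 1 unit is a doubling. Of 15922 probe sets tested, 8760 had 1 gene. Pairs of arrays correlated at 0.971 to 0.975 within GA20OX1-OE and at 0.966 to 0.972 within Col-0. SBPASE, an enzyme of the Calvin cycle used as the leaf marker, had 12.92 to 13.43 in GA20OX1-OE and 13.19 to 13.29 in Col-0, far above the low-signal bound of 5.257. The seed oil body gene OLEO3 lay at that bound, with 5.07 to 5.30 in GA20OX1-OE and 5.15 to 5.54 in Col-0.

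Few transcripts passed the test between the overexpressing line and its wild type. A probe set was called where limma's Benjamini-Hochberg adjusted p over all tested probe sets was under 0.05. That held for 3 probe sets, or 0.0188%, and all 3 were lower in GA20OX1-OE. None was called higher, although 2010 probe sets (12.6%) had an unadjusted p under 0.05, 1299 of them higher (8.16%) and 711 lower (4.47%). Only AT1G47400 of the 3 differed by 2-fold or more. Arrays with the same replicate number deviated together, and with that number as a block 7 probe sets were called, 1 higher and 6 lower. The median standard error of a difference was 0.21, which sets the size that could be seen with 3 arrays a group.

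AT1G47400, a gene with no symbol in the reference gene table, fell most. Its signals were 5.45, 6.49 and 6.15 in GA20OX1-OE, against 7.61, 8.06 and 7.37 in Col-0. Every GA20OX1-OE array lay below every Col-0 array. The difference was -1.65 (SE 0.28), or 3.13-fold lower, with limma's adjusted p = 0.041. GA20OX1-OE replicate 1 was near the low-signal bound of 5.257, and a stricter filter of the lowest 50% removed this probe set. In bulk tissue, fewer cells of a type and less RNA per cell cannot be told apart.

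The order of AT1G47400 over the 7 genotypes put Col-0 at the top with a mean of 7.68. The means of the others were 6.92 in aba2, 6.79 in aba2/GA20OX1-OE, 6.53 in aba2/ga20ox1, 6.03 in GA20OX1-OE, 5.97 in ga20ox1 and 5.89 in ABA2-OE. GA20OX1-OE and the ga20ox1 mutant, which differ in opposite ways in the engineered gene, stood at nearly the same low level. The difference between these 2 lines was 0.06 (limma's adjusted p = 0.96).

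AT1G30260 also has no symbol of its own in that table. It had 9.68, 9.67 and 9.93 in GA20OX1-OE and 10.72, 10.55 and 10.86 in Col-0. The groups did not overlap, and the difference was -0.95 (SE 0.16), or 1.93-fold lower, with limma's adjusted p = 0.041. Among the 7 genotypes GA20OX1-OE was the lowest, with a mean of 9.76. The next were ga20ox1 at 10.65, Col-0 at 10.71 and ABA2-OE at 10.74, which lay within their own spread of each other, and the 3 lines with aba2 stood above them at 11.01 in aba2/GA20OX1-OE, 11.51 in aba2 and 11.68 in aba2/ga20ox1.

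AT1G30250 is the gene next to AT1G30260, with 0 annotated genes between them in the TAIR10.1 gene table. Its signals were 9.47, 9.39 and 9.79 in GA20OX1-OE and 10.13, 10.51 and 10.64 in Col-0. These groups did not overlap either. The difference of -0.87 (SE 0.19) had limma's adjusted p = 0.141 and was not called, but with the replicate number as a block it was called at adjusted p = 0.034. Its mean was again the lowest of the 7 genotypes in GA20OX1-OE, at 9.55, and the highest in aba2/ga20ox1, at 11.94, as the plot of signals by genotype shows.

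The probe set 248103_at, to which the annotation gives no gene, had 10.51, 10.58 and 10.59 in GA20OX1-OE and 11.35, 11.13 and 11.23 in Col-0. The 3 GA20OX1-OE arrays lay close together and below all Col-0 arrays. The difference was -0.68 (SE 0.11), 1.60-fold lower, with limma's adjusted p = 0.041. Each of the 3 calls kept its direction but was lost in most alternatives. AT1G30260 and 248103_at were called in 5 of 15, and AT1G47400 in 5 of the 14 that tested it. Leaving out any of GA20OX1-OE replicate 1, GA20OX1-OE replicate 3, Col-0 replicate 1 or Col-0 replicate 3 left 0 calls in this comparison.

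**Figure D1:**
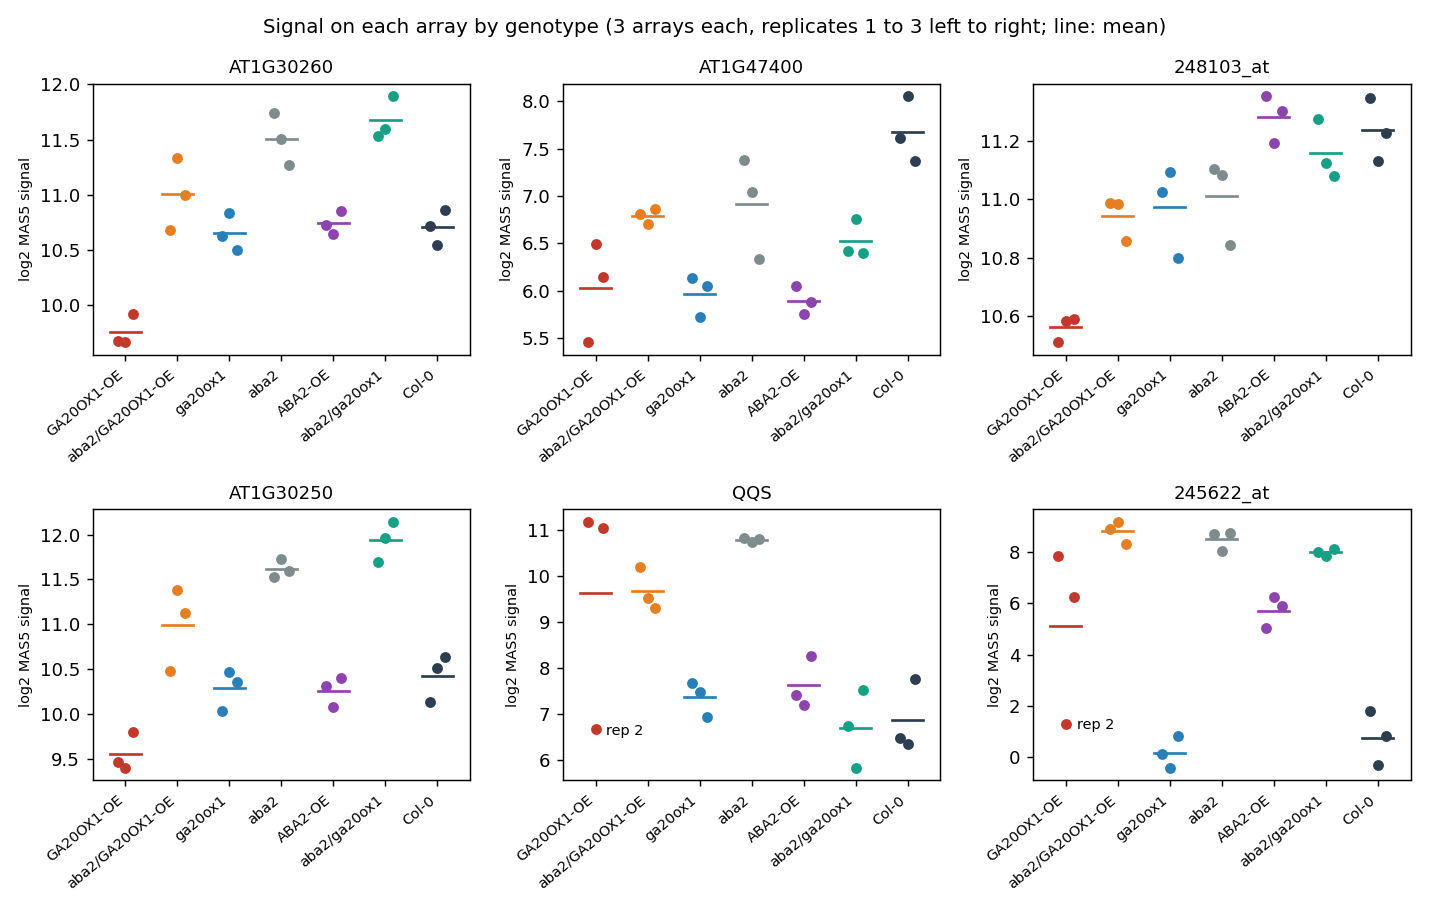
Log2 MAS5 signal of 6 probe sets (vertical axes) in each of 7 genotypes, GA20OX1-OE leftmost and Col-0 rightmost; points are arrays in replicate order and lines are genotype means. AT1G30260, AT1G30250 and 248103_at are lowest in GA20OX1-OE, AT1G47400 is highest in Col-0, and for QQS and 245622_at replicate 2 of GA20OX1-OE lies with Col-0.

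Of the probe sets not called, the smallest p among the falls belonged to 249265_at, which has no gene assigned. It had 12.94, 13.03 and 12.80 in GA20OX1-OE and 13.72, 13.50 and 13.55 in Col-0, without overlap. Its difference of -0.67 (SE 0.13) had limma's adjusted p = 0.107, and with the replicate number as a block 0.03, a call.

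Among single-gene probe sets, the 8 falls next in rank by p had adjusted p-values of 0.141 to 0.191 in limma, and none was called. Arrays did not overlap between the genotypes for any of the 10 named falls, which ranking by p favours. LSM6A, an Sm-like protein of the complex that acts in messenger RNA decay and splicing, had 9.35, 9.28 and 9.23 in GA20OX1-OE against 9.84, 9.85 and 9.95 in Col-0. Its difference was -0.59 (SE 0.14). AT5G05250 had the widest gap of those not called, with 6.44, 7.43 and 7.62 in GA20OX1-OE and 8.27, 7.91 and 8.35 in Col-0. That is a difference of -1.01 (SE 0.24), or 2.02-fold lower. AT5G01870 had a difference of -0.92 (SE 0.20), AT5G44580 of -0.83 (SE 0.18) and AT2G46490 of -0.77 (SE 0.16). AT5G16070 and AT2G23090 had smaller ones of -0.62 (SE 0.14) and -0.55 (SE 0.13). The gene table gives these 5 loci and AT5G05250 no symbol.

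No rise was called. The smallest p among rises belonged to 251109_at, which has no gene assigned and had 12.46, 12.40 and 12.30 in GA20OX1-OE against 11.82, 11.43 and 11.23 in Col-0. Its groups did not overlap, and the difference was 0.89 (SE 0.17, limma's adjusted p = 0.109). It was called with the replicate number as a block (adjusted p = 0.03) and with quantile normalization (adjusted p = 0.019).

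The 10 rises first by p among probe sets with 1 gene had adjusted p-values of 0.141 to 0.20 in limma. All 10 had arrays without overlap, which ranking by p again favours. SKU5, a cell wall glycoprotein tied to the plasma membrane and needed for directional root growth, had 12.69, 12.39 and 12.75 in GA20OX1-OE and 11.55, 11.92 and 12.05 in Col-0. The lowest GA20OX1-OE array was above the highest Col-0 array, with a difference of 0.77 (SE 0.18). The chloroplast gene rpl22, for a protein of the large subunit of the plastid ribosome, had 12.52, 12.45 and 12.54 in GA20OX1-OE against 11.37, 11.45 and 11.34 in Col-0. Replicates of rpl22 lay close together in both genotypes, and the difference was 1.11 (SE 0.25), or 2.17-fold higher. It was called only in a fit of these 2 genotypes alone, at limma's adjusted p = 0.020, and that fit called nothing else.

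The remaining 8 rises by p are loci without a symbol. AT1G52360 had a difference of 1.25 (SE 0.29), AT5G11230 of 1.17 (SE 0.25) and AT1G26520 of 1.08 (SE 0.23), each above 2-fold and not called. AT4G29270, AT3G09760 and AT5G60990 had 0.83, 0.78 and 0.61. For AT3G59845 and AT4G23680 the Col-0 mean lay under the low-signal bound, so no fold is given. AT3G59845 had 6.94, 5.99 and 5.64 in GA20OX1-OE and 2.65, 5.06 and 2.44 in Col-0, and AT4G23680 had 7.33, 6.15 and 6.12 in GA20OX1-OE and 4.55, 5.26 and 4.69 in Col-0. For both genes the Col-0 signals are near or under what the arrays resolve.

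**Figure D2:**
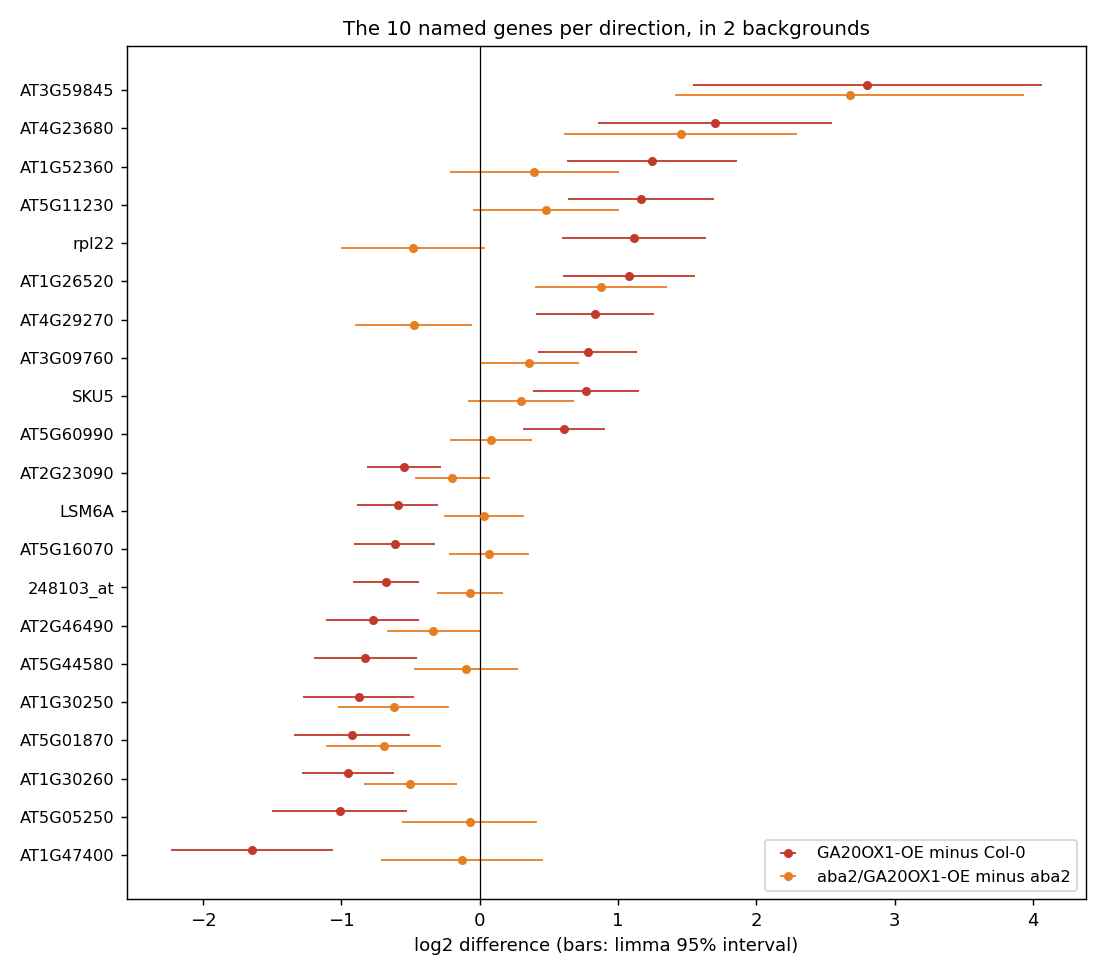
Log2 difference (horizontal axis) of the 20 named genes and of 248103_at, with limma's 95% intervals, for GA20OX1-OE minus Col-0 and for aba2/GA20OX1-OE minus aba2. Rises run from 0.61 to 2.80 and falls from -0.55 to -1.65 against Col-0, the contrast by which these genes were chosen. Points of the aba2 background, which had no part in the choice, run from -0.69 to 2.68.

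In a small set of probe sets, chosen once their values had been seen, GA20OX1-OE replicate 2 stood apart from replicates 1 and 3. QQS, an orphan gene that affects how carbon and nitrogen are divided between starch and protein, had 11.19, 6.68 and 11.05 in GA20OX1-OE against 6.49, 6.36 and 7.78 in Col-0. Replicate 2 lay inside the Col-0 range, and the other 2 arrays were over 3 units above it. The difference over all 3 arrays was 2.76 (SE 0.74, limma's adjusted p = 0.219), and without replicate 2 it was 4.25 with an adjusted p of 1.2e-05. QQS was picked because that array differs, so the p-value without it follows from the choice and carries no weight. QQS means in the other lines were 10.79 in aba2 and 9.69 in aba2/GA20OX1-OE, and 6.70 to 7.63 in ABA2-OE, ga20ox1 and aba2/ga20ox1.

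The unnamed probe set 245622_at had 7.84, 1.30 and 6.23 in GA20OX1-OE and 1.80, -0.31 and 0.82 in Col-0. Its Col-0 signals were far under the low-signal bound, so the size of the difference is not well measured, and with a pseudocount of 20.1 it was 1.88. Without replicate 2 its difference was 6.26 with limma's adjusted p of 2.3e-06, while over all arrays it was 4.35 (SE 0.96) and not called. In the opposite direction, 264054_at had 9.28, 11.34 and 9.49 in GA20OX1-OE and 11.41, 11.29 and 11.63 in Col-0. Here too replicate 2 sat within the Col-0 range, and without it the difference was -2.06 with an adjusted p of 2e-06. Both 245622_at and 264054_at were picked like QQS, so their p-values without replicate 2 carry no weight either. AT4G20420 had 8.24, 5.41 and 7.01 in GA20OX1-OE and 5.12, 5.07 and 5.03 in Col-0, with replicate 2 the nearest to Col-0. Without that array 7 probe sets were called, 5 higher and 2 lower, and AT1G47400 was among them while AT1G30260 and 248103_at were not. Over all probe sets the root mean square log2 distance of replicate 2 from the other arrays of its genotype was 0.395, between 0.404 for replicate 1 and 0.378 for replicate 3.

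Some genes of flower and pollen, which a rosette should hold little of, showed the same division among replicates. ATA27, a beta-glucosidase of the anther, had 7.30, 3.47 and 6.06 in GA20OX1-OE and 1.72, 4.42 and 3.30 in Col-0. FD, the transcription factor that partners the flowering signal FT at the shoot tip, had 6.84, 5.31 and 6.17 in GA20OX1-OE and 3.10, 5.47 and 5.15 in Col-0. For both genes replicate 2 lay within the Col-0 range and the Col-0 mean was under the low-signal bound. Of the list's 6 named members 4 were tested. None was called, and ATA27 and FD were higher at an unadjusted p under 0.05, beside 8.16% of all probe sets. The pollen actin ACT11, at 8.34 to 8.51 in GA20OX1-OE and 8.23 to 8.46 in Col-0, and the ovule gene INO, at 5.63 to 5.82 in GA20OX1-OE and 4.48 to 6.19 in Col-0, overlapped between genotypes. The summed signal of the 4, as log2, was 8.74 to 9.44 in GA20OX1-OE and 8.58 to 8.77 in Col-0. The sugar transporter gene SWEET10 also had its highest array in replicate 1, with 7.55, 5.10 and 5.67 in GA20OX1-OE and 4.99, 5.04 and 4.37 in Col-0. The part of floral tissue in these differences was not tested.

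The genes that perceive and relay GA showed no call. All 7 named members of this list were tested, and 1 was higher at an unadjusted p under 0.05, beside 8.16% of all probe sets. GID1A, a GA receptor, had 9.34, 9.17 and 9.16 in GA20OX1-OE against 8.83, 9.14 and 8.65 in Col-0. Its groups did not overlap, by a narrow margin, and the difference was 0.35 (SE 0.14, limma's adjusted p = 0.332). The receptor GID1B had 6.56, 6.49 and 6.21 in GA20OX1-OE and 6.05, 6.96 and 4.32 in Col-0. Its difference of 0.65 (SE 0.44) rested on the third Col-0 array, and without that array it was -0.08. The third receptor, GID1C, differed by -0.07 (SE 0.25).

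Of the F-box genes that direct DELLA proteins to degradation, SLY1 differed by -0.18 (SE 0.26) and its homologue SLY2 by -0.45 (SE 0.26). The O-linked sugar transferases SPY and SEC, which modify DELLA proteins, differed by 0.04 (SE 0.19) and 0.17 (SE 0.18). The median over the 7 genes was 0.04, beside 0.09 over all tested probe sets. No DELLA gene, no gene of GA synthesis or inactivation and no member of the GASA family, whose transcripts respond to GA, was named by the annotation used here, so the feedback on synthesis genes was not analysed.

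Genes of cell wall growth gave no call. Of 36 named genes for xyloglucan and cellulose enzymes 23 were tested, and 0 were called by limma. At an unadjusted p under 0.05 3 were higher (background 8.16%) and 0 lower. Of the 23, 18 were above 0, where 61.6% of all probe sets were, and the median was 0.17, beside 0.09 over all. CSLC5, a xyloglucan glucan synthase, had 9.49, 9.63 and 9.52 in GA20OX1-OE and 8.90, 9.29 and 9.35 in Col-0, a difference of 0.37 (SE 0.14, limma's adjusted p = 0.314). The groups of CSLC5 did not overlap. The related CSLC6 differed by 0.50 (SE 0.21) and the endoglucanase-like GH9A3 by 0.81 (SE 0.33), with the Col-0 mean of GH9A3 under the low-signal bound. EXGT-A3, which cuts and rejoins xyloglucan, differed by -0.25 (SE 0.20).

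Expansins, which loosen the cell wall, gave no call either. Of 19 named members 12 were tested, and 1 was higher and 1 lower at an unadjusted p under 0.05, beside 8.16% and 4.47% of all probe sets. The median was -0.17 with 9 below 0, where 38.4% of all probe sets were. EXPA8 had 11.21, 10.84 and 10.49 in GA20OX1-OE and 11.98, 11.70 and 10.79 in Col-0. Its groups overlapped, and the difference was -0.64 (SE 0.29, limma's adjusted p = 0.368). EXPA18, an expansin of root hairs, had 4.83, 6.08 and 5.68 in GA20OX1-OE and 4.65, 2.74 and 5.09 in Col-0. Its Col-0 replicate 2 was far under the low-signal bound, and the other arrays were nearer to it. The difference was 1.36 (SE 0.60), and without Col-0 replicate 2 it was 0.656. Together with PYK10, a beta-glucosidase abundant in roots, EXPA18 was the tested part of the root marker list. PYK10 had 10.06, 10.67 and 10.19 in GA20OX1-OE and 9.94, 9.74 and 9.66 in Col-0, without overlap (background 11.7%). Its difference of 0.52 did not reach an unadjusted p under 0.05. The part of root tissue in these values was not tested.

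Other regulators of growth had few tested members. PRL, a subunit of the helicase that licenses DNA replication, had 9.89, 9.15 and 9.50 in GA20OX1-OE and 8.77, 8.71 and 9.26 in Col-0, a difference of 0.60 (SE 0.21, limma's adjusted p = 0.290). HBT, a subunit of the anaphase-promoting complex, differed by 0.31 (SE 0.23). Of the auxin response genes 6 of 11 named were tested, with 0 called and a median of 0.27. GH3.3, which conjugates auxin to amino acids, differed by 0.41 (SE 0.35), and the repressor IAA29 by -0.38 (SE 0.50).

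Chloroplast-encoded genes for the plastid ribosome and RNA polymerase lay almost all above their Col-0 level, without a call. Of 17 tested, 16 were above 0, where 61.6% of all probe sets were. Arrays of both genotypes did not overlap for 8 of them (background 11.7%), and the same number were higher at an unadjusted p under 0.05 (background 8.16%). The median difference was 0.53, beside 0.09 over all tested probe sets. This list was cut from a wider one with earlier results of these data known, so its counts are a description. The largest were rpl16 at 1.25 (SE 0.37) and rpl14 at 1.15 (SE 0.39), both above rpl22 and also for proteins of the large subunit. The polymerase subunit genes rpoC1, rpoC2 and rpoA differed by 0.75 (SE 0.30), 0.78 (SE 0.45) and 0.24 (SE 0.21). The exception was rpl32 at -0.30 (SE 0.16).

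Several of these genes, among them rps19, rpl22, rps3, rpl16 and rpl14, lie in 1 cluster of the chloroplast genome and are transcribed together, so they are not independent. The summed signal of the 17 genes, as log2, was 15.41 to 15.55 in GA20OX1-OE and 14.97 to 15.27 in Col-0. The ranges did not overlap. In the aba2 background, on other arrays, the median of the same genes was -0.26, and every one of the 17 was below 0. Against ga20ox1, a comparison that uses the same GA20OX1-OE arrays, it was -0.25. The sign of this group's median thus differed with the lines compared, and whether these medians differ was not tested.

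Chloroplast-encoded genes for photosynthesis were mixed. Of 42 tested, 5 were higher and 5 lower at an unadjusted p under 0.05, beside 8.16% and 4.47% of all probe sets. None was called, and the median was 0.20. The nuclear genes for photosynthesis gave no call either. Of 9 tested, 6 were lower at an unadjusted p under 0.05, beside 4.47% of all probe sets, 7 had no overlap between genotypes, beside 6.71%, and the median was -0.34. PSAE-1, a subunit of photosystem I, had 14.37, 14.13 and 14.33 in GA20OX1-OE and 15.20, 14.66 and 14.55 in Col-0. Its difference was -0.53 (SE 0.14, limma's adjusted p = 0.216).

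The minor antenna genes of photosystem II, LHCB4.2 and LHCB4.1, differed by -0.50 (SE 0.22) and -0.33 (SE 0.14). ATPC1, the gamma subunit of the chloroplast ATP synthase, differed by -0.33 (SE 0.12), PSAN of photosystem I by -0.30 (SE 0.13) and PSBY of photosystem II by -0.38 (SE 0.18). The summed signal of the 9, as log2, was 17.02 to 17.21 in GA20OX1-OE and 17.37 to 17.78 in Col-0. The median depended on the scaling between arrays: with quantile normalization it was -0.09.

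The ATG8 genes, whose products are attached to the autophagosome membrane and carry cargo into autophagy, were all below 0, where 38.4% of all probe sets were. None of the 9 was called, 4 were lower at an unadjusted p under 0.05 (background 4.47%), and the same 4 had no overlap between genotypes (background 6.71%). This list too was cut from a wider one with earlier results of these data known, so these counts are a description. ATG8D had 9.40, 9.34 and 9.44 in GA20OX1-OE and 10.12, 9.79 and 9.90 in Col-0. All GA20OX1-OE arrays of ATG8D lay below all Col-0 arrays, with a difference of -0.55 (SE 0.14, limma's adjusted p = 0.216). ATG8C differed by -0.49 (SE 0.15), APG8H by -0.46 (SE 0.14) and APG8A by -0.42 (SE 0.13). ATG8G and ATG8H were close to 0, at -0.07 (SE 0.25) and -0.04 (SE 0.24). The median was -0.38, and in the aba2 background it was -0.12. The wider senescence list had 10 of 13 below 0 (background 38.4%) and a median of -0.24, but 9 of those 10 were the ATG8 genes. At an unadjusted p under 0.05, 4 of its members were lower (background 4.47%) and 0 higher (background 8.16%). These 4 were the ATG8 genes already counted, and the 3 members above 0 were other genes. The highest member of this list was SAG101, which acts in defence signalling and leaf senescence, at 0.42 (SE 0.31).

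Among the 2 tested members of the iron deficiency list, AT1G47400 fell, as described. PYE, a transcription factor of the iron deficiency response, had 7.57, 7.85 and 7.67 in GA20OX1-OE and 8.11, 8.27 and 7.87 in Col-0. No GA20OX1-OE array of PYE exceeded the lowest Col-0 array, and the difference was -0.39 (SE 0.17, limma's adjusted p = 0.358).

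Genes that respond to ABA and cold, 5 of 5 tested, gave no call and none with an unadjusted p under 0.05. The linker histone HIS1-3, which drought and ABA induce, had 6.91, 6.10 and 6.05 in GA20OX1-OE and 7.06, 6.76 and 7.80 in Col-0, a difference of -0.85 (SE 0.49). COR15A, a chloroplast protein that protects membranes during freezing, differed by 0.23 (SE 0.33). The defence list held 3 plant defensins and 2 genes that share their initials, PDF1A and PDF1B, which encode peptide deformylases. The defensin PDF1.4 alone of the 5 passed an unadjusted p of 0.05, where 4.47% of all probe sets were lower. It had 5.38, 5.34 and 5.68 in GA20OX1-OE and 5.87, 6.49 and 6.50 in Col-0 (difference -0.82, SE 0.29).

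Of 5 flavonoid genes, UF3GT, a glycosyltransferase of anthocyanins, had 6.68, 6.18 and 6.31 in GA20OX1-OE and 5.54, 5.87 and 5.18 in Col-0, a difference of 0.86 (SE 0.32, limma's adjusted p = 0.308). DFR, which makes the leucoanthocyanidins they derive from, overlapped between genotypes at 0.70 (SE 0.44). The 5 glucosinolate genes had a median of 0.28, with UGT74B1, which adds glucose to the glucosinolate core, at 0.33 (SE 0.15). Of 16 named SWEET genes 12 were tested, with a median of 0.01. The 2 past an unadjusted p of 0.05, both higher (background 8.16%), were SWEET10 and SWEET3. Their Col-0 means were under the low-signal bound.

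**Figure D3:**
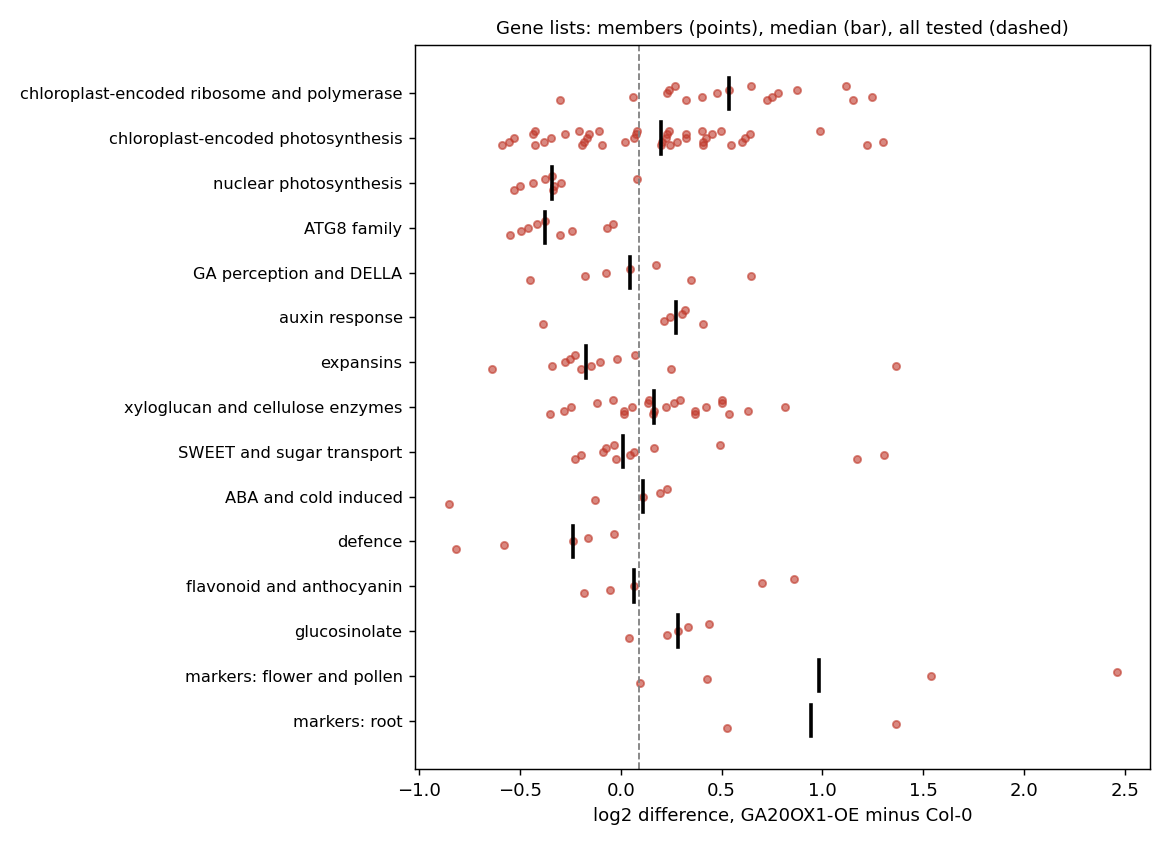
Log2 difference, GA20OX1-OE minus Col-0 (horizontal axis), of each tested member of 15 gene lists; bars are list medians and the dashed line is the median of all tested probe sets, 0.09. Chloroplast ribosome and polymerase genes sit right of 0 in 16 of 17 cases, and ATG8 genes left of 0 in 9 of 9. The lists were chosen with earlier results of these data known.

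The same transgene was also measured without ABA2. The comparison of aba2/GA20OX1-OE with aba2 shares no array with that of GA20OX1-OE with Col-0. It called 121 probe sets, or 0.76% of those tested, with 100 higher (0.628%) and 21 lower (0.132%), against 3 in the Col-0 background. No probe set was called in both. Of the 100 called higher, 75 (75%) were above 0 in the Col-0 background, where 61.6% of all probe sets were, and 21 (21%) were higher there at an unadjusted p under 0.05, beside 8.16%. Of the 21 called lower, 19 (90.5%) were below 0, beside 38.4% of all, and 7 (33.3%) were lower at an unadjusted p under 0.05, beside 4.47%.

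The median difference of the 100 was 0.23 against Col-0 and 1.14 in the aba2 background, and of the 21 it was -0.26 and -0.94. The members were chosen by their values in aba2, which favours smaller values in the other background, so these medians are a description and the difference between backgrounds is tested only by the interaction. WSD1, a wax ester synthase of the cuticle, had 6.41 to 7.48 in GA20OX1-OE and at most 6.42 in Col-0, so that the groups just overlapped. Its difference was 0.71 (SE 0.38), and in the aba2 background it rose by 2.27 (SE 0.38, limma's adjusted p = 0.0032). EXLA2, an expansin-like protein, had 7.10 to 7.56 in GA20OX1-OE and 7.21 to 7.84 in Col-0 and rose by 2.61 (SE 0.50, adjusted p = 0.011) in the aba2 background. SWEET1, a glucose transporter, had 8.99 to 9.06 in GA20OX1-OE and 8.86 to 9.37 in Col-0, and fell by 1.01 in the aba2 background (adjusted p = 0.0019).

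Read the other way, the genes named against Col-0 were followed into the aba2 background. Of the 10 rises, 8 were above 0 there (56.7% of all probe sets were), 4 at an unadjusted p under 0.05 (background 6.23%), and AT3G59845 was called, at 2.68 (SE 0.61, limma's adjusted p = 0.037) beside 2.80 (SE 0.61) against Col-0. The exceptions were rpl22 and AT4G29270, which were both at -0.48. Of the 10 falls, 8 were below 0 (43.3% of all), 3 at an unadjusted p under 0.05 (background 3.74%), and none was called. AT1G30260 differed by -0.50 (SE 0.16), its neighbour AT1G30250 by -0.62 (SE 0.19) and AT5G01870 by -0.69 (SE 0.20). AT1G47400 and 248103_at differed by only -0.13 (SE 0.28) and -0.07 (SE 0.11).

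**Figure D4:**
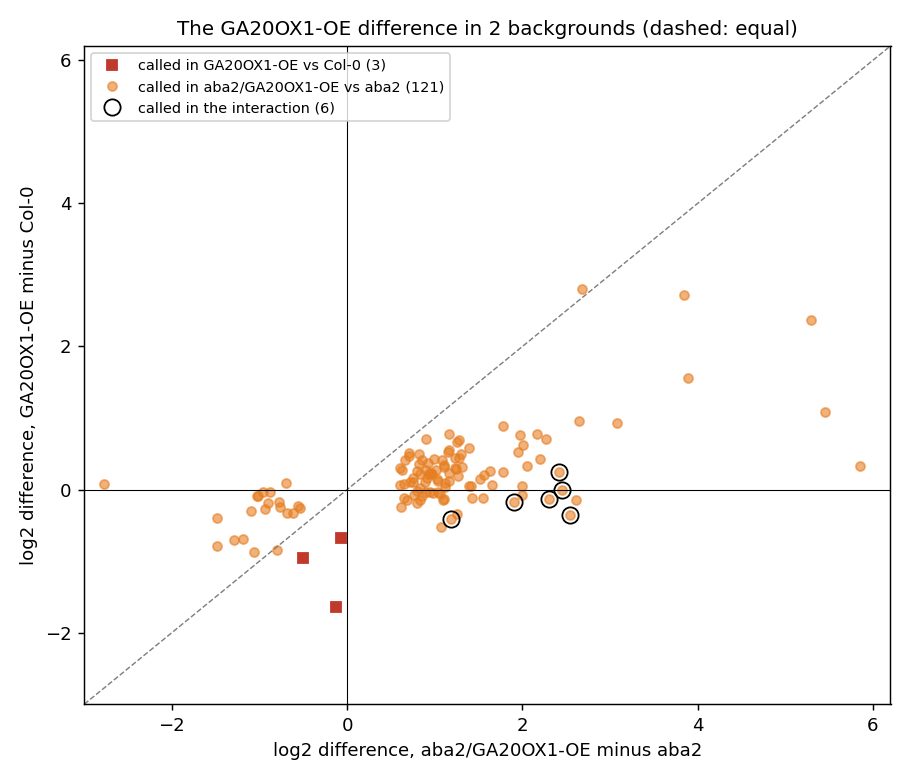
Log2 difference of GA20OX1-OE minus Col-0 (vertical axis) against that of aba2/GA20OX1-OE minus aba2 (horizontal axis) for the 3 and 121 probe sets called in each; circles mark the 6 called in the interaction and the dashed line equal values. Of the 100 probe sets called higher in aba2, 75 lie above 0 against Col-0, and of the 21 called lower, 19 lie below 0; their values in aba2 chose them.

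Whether the transgene acted differently in both backgrounds was tested as the interaction in the same fit, and 6 probe sets (0.0377%) were called. All 6 had a larger value in the aba2 background. AT5G40630 had 4.63, 5.45 and 5.23 in GA20OX1-OE and 5.73, 5.73 and 4.92 in Col-0, a difference of -0.36 (95% interval -1.08 to 0.37), and rose by 2.55 in the aba2 background. AT1G72230 had 9.41, 8.60 and 8.17 in GA20OX1-OE and 9.13, 8.65 and 8.40 in Col-0. Its interval against Col-0 was -0.62 to 0.62, and its value in the aba2 background was 2.45. AT3G25290 and AT3G48970 differed by -0.13 and -0.17 against Col-0 and rose by 2.30 and 1.90 in the aba2 background. AT5G40630 was called in 10 of 20 alternatives, AT1G72230 in 10 of 21, AT3G25290 in 9 of 20 and AT3G48970 in 8 of 21. All 4 calls were lost when any 1 of the 3 aba2 arrays was left out. They were also lost without Col-0 replicate 1 or 2, without GA20OX1-OE replicate 3, and in a fit of only the groups compared. For the remaining probe sets of the 121 the difference between backgrounds was not called.

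The last comparison set the overexpressing line against loss of the same gene. Between GA20OX1-OE and ga20ox1, 21 probe sets were called (0.132%), 11 higher (0.0691%) and 10 lower (0.0628%), and with the replicate number as a block 44 were called, 23 higher and 21 lower. It shares its GA20OX1-OE arrays with the comparison to Col-0. The Col-0 mean lay between the other 2 in 20 of the 21 probe sets, an order that choosing them by this difference favours. No share over all probe sets was computed, so the count is only a description. Of the 21, the 7 with a single gene and 3 without were chosen for the text once their values had been seen.

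The 2 smallest p-values belonged to probe sets without a gene that were lower in GA20OX1-OE. 258791_at had 10.09, 10.53 and 10.08 in GA20OX1-OE, 12.03, 11.98 and 11.43 in ga20ox1, and 11.14, 11.04 and 11.03 in Col-0. The 3 genotypes did not overlap, and the difference from ga20ox1 was -1.58 (limma's adjusted p = 3.8e-04). Against Col-0 it was -0.84 (SE 0.19, adjusted p = 0.141) and was not called. 263046_at had 10.95, 10.68 and 10.77 in GA20OX1-OE, 12.64, 12.83 and 12.61 in ga20ox1, and 12.29, 11.15 and 11.64 in Col-0. Its difference was -1.90 from ga20ox1 (adjusted p = 4.4e-04) and -0.90 (SE 0.23) from Col-0. Both kept their call against ga20ox1 in all 15 alternatives.

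Among the rises, 254065_at, also with no gene assigned, had the widest separation. It had 8.77, 9.41 and 8.04 in GA20OX1-OE, 5.26, 2.94 and 4.92 in ga20ox1, and 6.59, 6.45 and 6.07 in Col-0. No arrays overlapped among the 3 genotypes. GA20OX1-OE differed by 4.36 from ga20ox1 (limma's adjusted p = 0.0026) and by 2.37 (SE 0.63) from Col-0. The value against Col-0, 5.16-fold higher, had an adjusted p of 0.218 and was not called, while with a pseudocount of 20.1 it was called at 0.0094. In the aba2 background it rose by 5.30 (SE 0.63, adjusted p = 1.3e-04), and its mean was 11.96 in aba2/GA20OX1-OE, 6.66 in aba2 and 1.76 in aba2/ga20ox1.

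AT4G23680 rose by 2.92 relative to ga20ox1 (limma's adjusted p = 0.0019), and AT5G22460 by 1.41 (adjusted p = 0.0081). AT5G22460 had 9.58, 8.66 and 8.61 in GA20OX1-OE and 8.52, 8.04 and 8.20 in Col-0, a difference of 0.70 (SE 0.23) that was not called, and it rose by 1.27 in the aba2 background (adjusted p = 0.0063). AT3G44970 had a difference of -1.81 from ga20ox1 (adjusted p = 0.0044), with -0.70 (SE 0.28) against Col-0 and -1.29 in the aba2 background (adjusted p = 0.027). scpl35, a serine carboxypeptidase-like protein, had 10.47, 10.44 and 10.88 in GA20OX1-OE and 11.06, 10.88 and 10.77 in Col-0. It differed by -0.90 from ga20ox1 (adjusted p = 0.013) and by -0.31 (SE 0.15) from Col-0. AT1G30260 and AT5G44580 differed from ga20ox1 by -0.90 (adjusted p = 0.020) and -0.94 (adjusted p = 0.032), near their values against Col-0. AT5G62080 differed from ga20ox1 by 4.23 (adjusted p = 0.020), with 8.53, 4.99 and 5.50 in GA20OX1-OE, of which replicate 1 stood far above the others. The ga20ox1 means of AT5G62080, AT4G23680 and 254065_at were under the low-signal bound, so these sizes are not well measured. Of these calls, 254065_at held in 14 of 14 alternatives, AT4G23680 in 13 of 14, AT3G44970 in 12 of 14 and AT5G22460 in 12 of 15. Those of scpl35 held in 9 of 15, of AT5G62080 in 9 of 14, and of AT1G30260 and AT5G44580 in 8 of 15.

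**Figure D5:**
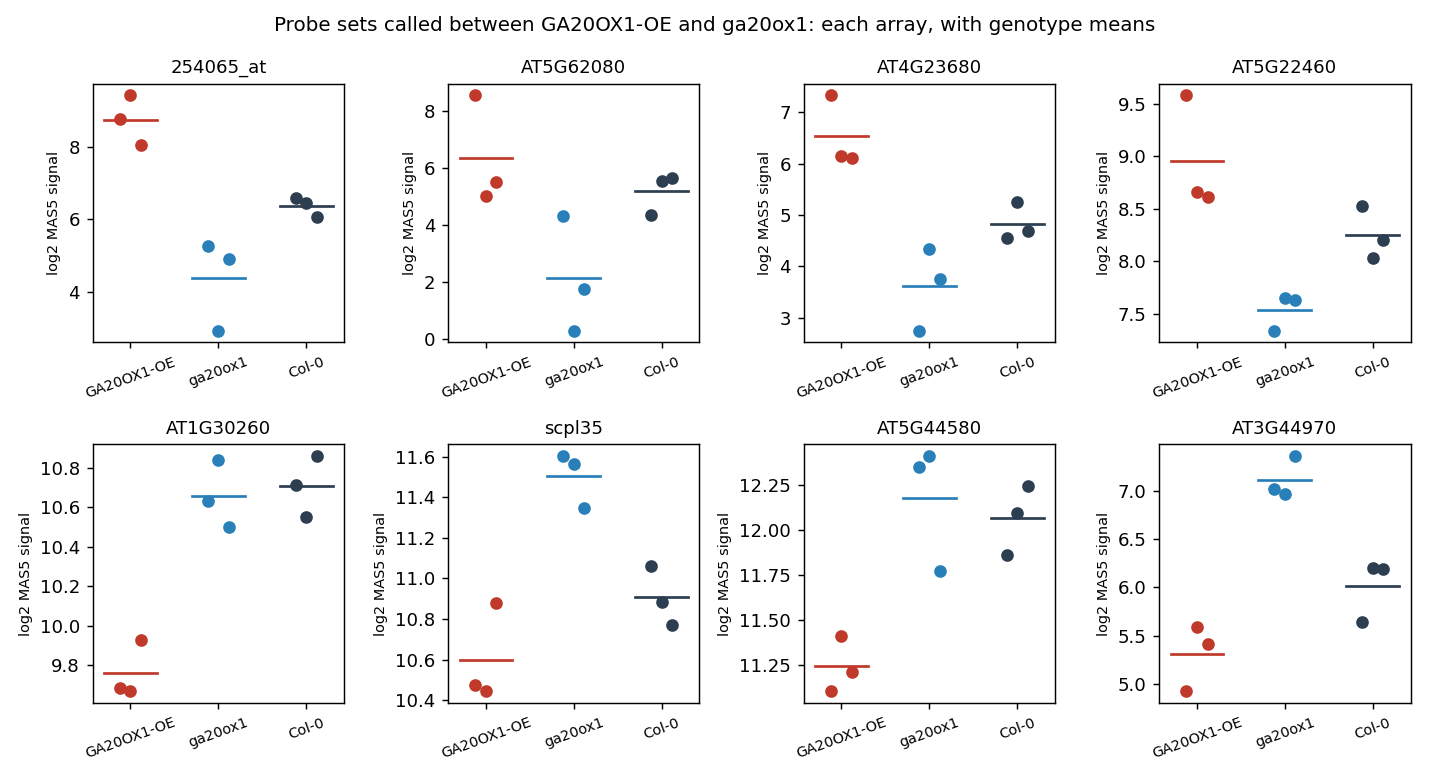
Log2 MAS5 signal (vertical axes) of 8 probe sets called between GA20OX1-OE and ga20ox1, with each array as a point and genotype means as lines, in GA20OX1-OE, ga20ox1 and Col-0 from left to right. Col-0 lies between the other lines for 254065_at, and close to ga20ox1 for AT1G30260 and AT5G44580.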

How the data were processed

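RNA of aerial parts was hybridised to 21 single-channel Affymetrix arrays. The labels give 7 genotypes with 3 each. The authors deposited MAS5 signals (intensity, linear scale), with MAS5 named in the submitters' processing notes. Its version and settings are not stated in these sources. A mean trimmed by 2% at either end equalled 500 on every array, which shows scaling before deposit. Median signals were 131 to 187. The number of arrays limits the precision.

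After removal of 64 control probe sets from 22810, signals were logged to base 2, and the 30% with the lowest mean (bound 5.257, signal 38.24) were dropped. This left 15922. The annotation listed 14016 probe sets, 13436 with 1 gene, 503 with several and 77 without a match in the gene table, and 8730 were not listed. A probe set is named only where it has 1 gene.

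Differences were tested, two-sided, with limma 3.58.1 in R 4.3.3 (lmFit, eBayes with trend) in 1 fit of 7 genotype means over 21 arrays. All adjusted p-values are limma's, Benjamini-Hochberg over the tested probe sets. The test was checked on simulated data. Tables and figures used Python 3.11.15, numpy 2.4.6, pandas 2.3.3 and matplotlib 3.10.9.

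Deviations of same-numbered arrays from their genotype means correlated at 0.105, 0.131 and 0.227 between GA20OX1-OE and Col-0, and at 0.131, 0.135 and 0.229 between GA20OX1-OE and ga20ox1. The numbers thus seem to pair these arrays, from the data and not from the labels. Not every pair of genotypes showed this: replicate 2 of Col-0 and of ga20ox1 correlated at -0.0371. No label says what a number stands for, so the main fit leaves this pairing out, and the block is given as an alternative.

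The comparison, lists and rules were chosen with earlier results of these data known, and some lists come from an earlier analysis of them. The named genes are, per direction, the 10 single-gene probe sets that were called or came next by p. To these were added the largest called probe set without a gene, the extremes of each list, and the called interactions. Others are said to have been picked after their values were seen. Alternatives were eBayes without trend, array weights, the replicate block, a fit restricted to the compared groups, no filter, a filter of 50% (11373 kept), a pseudocount of 20.1 (the 20th percentile), quantile normalization and leaving out each array.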

Additional observations from a re-analysis of the deposited data

Results flagged for a closer look

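The interaction test called 6 probe sets in which the response to GA20OX1-OE differed between the aba2 and the Col-0 background, each with a larger value in aba2. Their direction held in every alternative, but each was called in only 8 to 10 of 20 or 21. All 6 calls were lost without aba2 replicate 1, 2 or 3, without Col-0 replicate 1 or 2, and without GA20OX1-OE replicate 3. They were also lost in the fit of only the groups compared. The same held when replicate 2 of GA20OX1-OE and replicate 3 of aba2/GA20OX1-OE were both left out. The difference between backgrounds, on the log2 scale, was 2.904 (SE 0.50, limma's adjusted p = 0.028) for AT5G40630, 2.448 (SE 0.42, adjusted p = 0.028) for AT1G72230, 2.435 (SE 0.42, adjusted p = 0.028) for AT3G25290 and 2.068 (SE 0.36, adjusted p = 0.029) for AT3G48970. Of the probe sets without a gene, 247638_at had 2.169 and 250002_at 1.597. Their own differences against Col-0 were 0.25 and -0.41, and in the aba2 background they were 2.41 and 1.18.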

How the results depend on the processing

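Counts of called probe sets depended on the setting. For GA20OX1-OE against Col-0 the count of 3 became 0 with eBayes without trend, 0 with array weights, 0 without a low-signal filter, 1 in the fit of only these groups, 7 with the replicate block, and 0 to 7 when 1 array was left out. Quantile normalization gave 4 (1 higher, 3 lower). For aba2/GA20OX1-OE against aba2 (121) it was 387 with array weights, 63 in the fit of only these groups, and 43 to 157 with 1 array left out. The interaction (6) gave 2 without trend, 10 with array weights, 1 in the fit of only these groups, 10 with the pseudocount, 4 with the stricter filter, 8 with the replicate block and 0 to 13 with 1 array left out. GA20OX1-OE against ga20ox1 (21) gave 9 without trend, 2394 with array weights, 4 in the fit of only these groups, 14 without a filter, 12 with the stricter filter, 44 with the replicate block and 4 to 47 with 1 array left out. Without replicate 2 of GA20OX1-OE and replicate 3 of aba2/GA20OX1-OE, an alternative chosen after seeing the data, the fit gave 8, 86, 3 and 35 for these 4 comparisons. In the aba2 background, where same-numbered arrays correlated at 0.192, 0.0635 and 0.381, the block gave 169.

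Of 1263 gene differences under alternatives, 1037 kept direction and side of the threshold, 198 lost a call, 22 gained one and 6 reversed. A difference not called in the main fit counts as kept when it stays uncalled. All 198 losses thus fall on the differences that were called, so the pooled 1037 does not measure how stable the calls are. ATPC2 (0.08) was -0.1061 with quantile normalization, -0.05914 without GA20OX1-OE replicate 1 and -0.2166 to 0.2783 without 1 Col-0 array. GID1B was -0.08018 without Col-0 replicate 3 and up to 1.24 without other arrays. IAA29 was 0.08875 without Col-0 replicate 1, 0.124 without GA20OX1-OE replicate 3 and down to -0.8874 without other arrays. The median over all probe sets was 0.091, and -0.0024 with quantile normalization. The causes were not tested. Signals near the low-signal bound of 5.257 limit what can be said of 245622_at, 254065_at in ga20ox1, ATA27, FD, SWEET10, AT3G59845 and AT4G23680. They also limit AT4G20420 in Col-0, and AT5G40630 in GA20OX1-OE and Col-0. The same holds for AT1G47400 in GA20OX1-OE replicate 1.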
